A study of Homo sapiens with 2 samples.

Results

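The 7 cardiac myosin heavy and light chain genes MYH6, MYH7, MYH7B, MYL2, MYL3, MYL4 and MYL7 were taken by symbol from the 36601 gene rows of a single-cell RNA count table, and all 7 were found. The cells were cardiomyocytes made from H9, a human embryonic stem cell line, carrying the fluorescent calcium reporter gCaMP6f. They were at day 15 of differentiation and had been frozen, thawed, stained with antibody-borne barcodes (hashtags) and pooled before 10x Genomics capture. The table has 13 hashtags, but the labels give no sample for any of them, so each is treated as an unassigned sample and only its values, ranges and medians are given. All cells come from 1 cell line and 1 pool, the labels name no control group, and no p-value was computed.

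Myosin of heart muscle is built from heavy chains, which carry the motor, and from essential and regulatory light chains, which stiffen and tune the lever arm. MYH6 encodes the fast alpha heavy chain and MYH7 the slow beta heavy chain, whose share rises in the ventricles of the maturing human heart. MYH7B is a related slow heavy chain. MYL4 and MYL3 are essential light chains, MYL4 of the atria and the fetal heart and MYL3 of the ventricles. MYL7 and MYL2 are the regulatory light chains of atrium and ventricle, and MYL2 appears late in human stem cell-derived cardiomyocytes.

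Each of the 3 heavy chain genes carries a microRNA in an intron on its own strand. The mature sequences are shown because the microRNA is made from the same primary transcript as the chain counted here, with the seed (bases 2 to 8) in capitals.
miR-208a-3p: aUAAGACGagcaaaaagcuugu
miR-208b-3p: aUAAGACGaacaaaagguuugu
miR-499a-5p: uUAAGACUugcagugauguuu
The sequences are from RefSeq on GRCh38.p14. The hairpin of miR-208a lies in intron 29 of MYH6 (chr14:23388596-23388666), that of miR-208b in intron 30 of MYH7 (chr14:23417987-23418063) and that of miR-499a in intron 20 of MYH7B (chr20:34990376-34990497). miR-208a-3p and miR-208b-3p share the seed UAAGACG and differ at 3 positions outside it, G10A, A16G and C18U, counted from the 5′ end with the base of miR-208a-3p first. The seed of miR-499a-5p, UAAGACU, is found only in that one of the 3. The table has no row for any of the 3 microRNA genes, so their own levels were not analysed here.

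In GENCODE 29 on GRCh38, MYH6 (ENSG00000197616, chr14:23381990-23408277) and MYH7 (ENSG00000092054, chr14:23412738-23435718) lie in tandem on the minus strand, 4460 bases apart. MYH7B (ENSG00000078814) is at chr20:34975403-35002437 on the plus strand. The light chain genes are MYL2 (ENSG00000111245, chr12:110910819-110920722, minus), MYL3 (ENSG00000160808, chr3:46857872-46882169, minus), MYL4 (ENSG00000198336, chr17:47200446-47223679, plus) and MYL7 (ENSG00000106631, chr7:44138864-44141332, minus). MYH6 and MYH7 are close copies: 14.8% of the 50-base windows of the main MYH6 transcript occur in MYH7, and 16.6% of those in its last 500 bases. How reads that match both were counted is not given in the sources used here, so values of the pair carry that uncertainty. The other members share no 50-base window with each other. TRPC4AP overlaps the end of MYH7B and PTH1R overlaps MYL3, each on the opposite strand, and whether counting used strand is not known here. The antisense gene AL132855.1 lies within MYH7 and had 0 unique molecular identifiers (UMIs) in the cardiomyocyte-like cells.

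RefSeq promoter entries were found for 3 members. The 2 for MYL3 do not lie at the start of its main transcript and are not shown. MYH6 and MYL7 are shown as the 2 members with the largest ratios of NR2F2-positive to HEY2-positive cells in the comparison of marker classes. The 250 bases before each start site are given 5′ to 3′ on the minus strand (RefSeq, GRCh38.p14).
MYH6, chr14:23408274-23408523: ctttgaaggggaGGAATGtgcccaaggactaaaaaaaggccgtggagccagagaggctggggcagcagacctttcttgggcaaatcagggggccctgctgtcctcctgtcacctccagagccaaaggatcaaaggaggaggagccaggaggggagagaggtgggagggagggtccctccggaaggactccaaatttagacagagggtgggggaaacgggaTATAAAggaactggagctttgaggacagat
MYL7, chr7:44141333-44141582: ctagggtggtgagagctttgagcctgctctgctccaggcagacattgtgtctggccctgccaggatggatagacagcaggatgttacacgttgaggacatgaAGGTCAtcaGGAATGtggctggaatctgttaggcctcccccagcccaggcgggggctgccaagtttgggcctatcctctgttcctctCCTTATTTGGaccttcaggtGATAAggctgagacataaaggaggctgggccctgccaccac
Both strands were searched for the GATA factor core GATAA, the TEAD core CATTCC, the nuclear receptor half-site AGGTCA, the TATA box TATAAA, the CArG box of SRF and the MEF2 site, and capitals mark the matches. MYH6 had CATTCC starting 238 bases before the start site and TATAAA 30 bases before it. MYL7 had AGGTCA at 148, CATTCC at 139, a CArG box at 61 and GATAA at 41 bases before its start site, and also CANNTG (an E-box, not in capitals) at 46, which overlaps GATAA. Neither stretch held the MEF2 site or GGTGTG (a T-box core). Of 35116 promoter stretches of this length, 1.16% held a CArG box, 11.9% CATTCC, 12.1% AGGTCA, 20.4% GATAA, 10.7% TATAAA, 61.8% CANNTG, 14.2% GGTGTG and 2.80% the MEF2 site.

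After filtering, 19115 cells with 254992799 UMIs were analysed, 1000 to 115854 per cell with a median of 11701. Clusters named from marker lists gave 14346 cardiomyocyte-like cells (75.1%). In these 8 clusters the 12 cardiomyocyte markers, none of them a myosin chain studied here, summed to 33794 counts per 1000000 UMIs (CPM) against 6636 CPM in 8 other clusters (3021 cells). A cluster of 1575 cells with a median of 1917 UMIs and a cluster of 173 cells led by CRHBP and HOXB1 were kept out of both sides. Their cardiomyocyte markers summed to 31189 and 37338 CPM. The first was left out for its low depth. In the second, another cell type had more markers than cardiomyocytes among the genes leading it against the other clusters. At clustering resolution 1.0 a cluster of 177 cells led by CRHBP and HOXB1 was counted as cardiomyocyte-like. All members and lists below were compared as sums over cells. Intervals are at 95%, cover counting error only, and say nothing about cultures. UMIs count captured molecules and were not scaled by length: the main transcripts of MYH6 and MYH7 have 5941 and 6087 bases, those of MYL7 and MYL2 612 and 807.

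In the cardiomyocyte-like cells the regulatory light chain UMIs were almost wholly MYL7 and the heavy chain UMIs mainly MYH6. MYL7 stood at 11130 CPM (11116 to 11144), MYL4 at 6710 (6699 to 6721), MYH6 at 3565 (3557 to 3573) and MYL3 at 3462 (3455 to 3470). MYH7 was at 419 CPM (417 to 422), MYH7B at 24.6 (23.9 to 25.3) and MYL2 at 18.7 (18.1 to 19.3). MYH6 thus made up 89.5% of the UMIs of the alpha and beta heavy chains (89.4 to 89.5), and there were 595 MYL7 UMIs for each MYL2 UMI (576 to 613). The essential light chains were less one-sided: MYL4 gave 66.0% of MYL3 and MYL4 UMIs. Together the 7 genes held 2.53% of all UMIs, with 5.32 light chain UMIs for each heavy chain UMI.

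Cell by cell, the heavy chain share was skewed, with a long tail of cells that favoured MYH7. Among 14047 cells with at least 10 UMIs of the pair, the median MYH6 share was 98.0%, 25% of cells were below 88.5% and 10% below 63.5%. No MYH7 UMI at all was seen in 39.4% of these cells, and MYH7 held the majority in 807 (5.75%, 5.37 to 6.14). The spread of the share between cells was an SD of 18.9 percentage points, while counting error alone would give 3.85 with a median of 50 UMIs of the pair per cell. The shares were spread more widely than counting error gives.

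**Figure D1:**
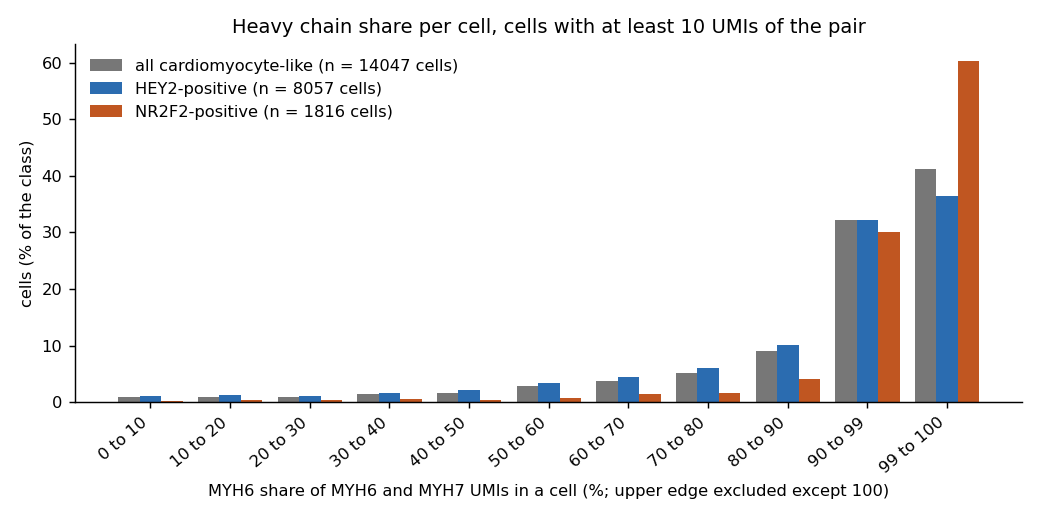
The bars give, for cells with at least 10 UMIs of the pair, the percentage of each class of cells (vertical axis) whose MYH6 share falls in each range (horizontal axis, %, with the top range split at 99). Of all cardiomyocyte-like cells, 41.2% had a share of 99% or more, and the tail below 50% holds 807 cells.

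MYL2, the late ventricular regulatory chain, was rare and uneven. It had 0 UMIs in 85.3% of cardiomyocyte-like cells, while the highest cell had 44. The 139 cells with 5 or more MYL2 UMIs (0.969% of cells) held 29.6% of the 3997 MYL2 UMIs. For comparison, the top 1% of cells by count held 30.1% of MYL2, 13.8% of MYH7 and 7.12% of MYL7 UMIs. Cells with at least 1 MYL2 UMI were 14.7% of cardiomyocyte-like cells, against 0.530% of the cells of other clusters. Median depth, with or without MYL2, was 12814.5 UMIs in all cardiomyocyte-like cells and 11065 in all cells of other clusters.

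All 7 genes were higher in cardiomyocyte-like cells than in the other clusters, past the 1.5-fold used here for a call. Of 9469 genes measured (at least 10 CPM and 10 UMIs on the higher side), 12.7% were higher and 26.0% lower, so 7 of 7 stands beside a background of 12.7%. With trimmed-mean (TMM) scaling in place of total UMIs, the median of all genes moved by 0.36 on the log2 scale and 63.8% rather than 32.9% of the calls were higher, and all 7 were still higher. The largest ratio was that of MYL2, 39.4-fold (24.6 to 67.7), from 17 UMIs in the other clusters. MYL3 was 15.6-fold, MYH7 9.36-fold, MYL4 7.37-fold, MYH6 5.63-fold, MYL7 5.00-fold and MYH7B 3.62-fold higher. MYH6 made up 93.4% of the heavy chain pair in the other clusters, MYL4 80.4% of its pair, and there were 4681 MYL7 UMIs per MYL2 UMI (2924 to 8036).

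These levels came largely from 1 of the 8 other clusters. A cluster led by STMN2, COL1A2 and DKK1 (838 cells) held 57.4% of the member UMIs on that side, its cardiomyocyte markers summed to 15803 CPM, and 26.8% of its cells had a SHOX2 UMI. At clustering resolution 1.0 a cluster of 1103 cells led by SHOX2 and MYLK was counted as cardiomyocyte-like, and 482 cells led by STMN2 and COL1A2 were not. MYL7 was at 6517 CPM in the STMN2-led cluster of 838 cells and 1004 CPM in the other 7 (2183 cells). MYH6 was at 1432 and 406 CPM, and MYH7 was lower in that cluster, at 39.4 and 46.3 CPM. Without this cluster, an alternative chosen after seeing the data, all 7 members were still higher in cardiomyocyte-like cells: MYL7 11.1-fold, MYL4 12.3-fold, MYH6 8.78-fold, MYH7 9.05-fold, MYL3 17.1-fold, MYH7B 5.19-fold and MYL2 43.5-fold. The MYH6 share of the other 7 clusters was 89.8%, the MYL4 share 72.9%, and MYL7 per MYL2 was 2332 (1335 to 4513). The part of free RNA in the levels of the other clusters was not tested.

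The myosin partners on the fixed lists were compared between the same sides. Of the 8 chaperones and turnover factors, 8 were measured, 6 were higher and 1 lower (median of the list 1.72 on the log2 scale, against -0.20 over all genes measured). TRIM63, a ubiquitin ligase that marks thick filament proteins, was 10.4-fold higher. SMYD1 and UNC45B, which help fold and assemble muscle myosin, were 6.93-fold and 4.77-fold higher, whereas the general form UNC45A was 0.587 of its level in other clusters. Of kinases and phosphatase subunits, 5 of 7 were measured: MYLK3, the cardiac light chain kinase, was 5.67-fold and PPP1R12B 2.08-fold higher, and the smooth muscle kinase MYLK was 0.160 of its level elsewhere. Of 9 smooth and non-muscle chains, 7 were measured: MYL9 was 3.04-fold higher, and the non-muscle chains MYH9, MYH10 and MYL12B were 0.483, 0.545 and 0.557 of their levels elsewhere. MYBPC3, cardiac myosin binding protein C, was the 1 measured gene of 5 on its list and was 4.11-fold higher, but it is also 1 of the 12 markers. Among 9 other sarcomeric chains only MYL5 reached the minimum, 1.94-fold higher. Of 24 regulators, 23 were measured, 9 were higher (IRX4 10.7-fold, TBX20 6.38-fold, NKX2-5, which is also a marker, 5.38-fold and RXRG 4.07-fold) and 5 lower (ISL1 0.0571, NR2F1 0.0824, SOX6 0.205 and TBX18 0.234 of their levels elsewhere).

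How the chains differ between cardiomyocyte subtypes was asked with 3 marker genes: HEY2, a transcription factor of ventricular muscle, NR2F2, one of atrial muscle, and SHOX2, one of sinus node and pacemaker muscle. Cells with a HEY2 UMI and none of the other two markers were called HEY2-positive (8151 cells), cells with an NR2F2 UMI and none of the other two NR2F2-positive (1851), and any cell with a SHOX2 UMI SHOX2-positive (167). A further 1260 cells had both NR2F2 and HEY2 UMIs, and 2917 had none of the 3. The classes rest on few UMIs: 692 NR2F2-positive, 2060 HEY2-positive and 109 SHOX2-positive cells had exactly 1. They were formed among cardiomyocyte-like cells only, of which 1.16% had a SHOX2 UMI. In the other clusters, which lie outside the classes, 8.97% of 3021 cells had one. This share was 26.8% in the cluster led by STMN2, COL1A2 and DKK1. Median depth was 8921 UMIs in NR2F2-positive and 14744 in HEY2-positive cells.

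NR2F2-positive cells held more alpha heavy chain and atrial regulatory chain and less of the ventricular chains. MYL7 was 22546 CPM (22477 to 22615) in NR2F2-positive and 8834 (8818 to 8850) in HEY2-positive cells, a ratio of 2.55. MYH6 was 5693 against 3166 CPM, a ratio of 1.80. MYH7, at 244 against 436 CPM, had a ratio of 0.560 (0.543 to 0.577). MYL2, at 8.76 against 19.2 CPM, had one of 0.456 (0.386 to 0.535). MYL3, at 2341 against 3680 CPM, had one of 0.636, and MYL4, at 6471 against 6629 CPM, one of 0.976. MYH7B was 34.7 against 22.1 CPM, a ratio of 1.57 (1.44 to 1.71) that came to 1.44, below the call, with TMM scaling. So 3 members were called higher and 3 lower, against 8.95% of 8614 genes measured higher and 3.52% lower. TMM moved the median of all genes by -0.12 (log2) and the share of calls that were higher from 71.8% to 51.4%, and left the other member calls in place.

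As ratios within each class, MYH6 was 95.9% of the heavy chain pair in NR2F2-positive and 87.9% in HEY2-positive cells, so that MYH6 per MYH7 was 3.21 times higher (3.11 to 3.31). That factor was 5.44 in cells thinned to 3000 UMIs, where MYH7 had a ratio of 0.336, and 4.98 where a class needed 2 marker UMIs. MYL7 per MYL2 was 2573 (2203 to 3025) against 460 (442 to 478), 5.60 times higher. MYL4 per MYL3 was 1.53 times higher (1.52 to 1.55), through the lower MYL3. MYH7 held the majority in 1.98% of NR2F2-positive and 7.22% of HEY2-positive cells with at least 10 UMIs of the pair. Cells with both NR2F2 and HEY2 had a heavy chain share near that of HEY2-positive cells, 87.0%, with MYL7 between the classes at 13268 CPM. These cells were on average deeper than those of either class, and the part of depth in their MYL7 level was not tested. Few of them were shallow: 5 of 1260 had under 3000 UMIs, against 83 of 8151 HEY2-positive and 48 of 1851 NR2F2-positive cells. Doublets remain in the data, and their part in this class was not tested.

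Depth moved with the classes, so the share was also read within 4 equal bins of cardiomyocyte-like cells by UMI count. From the shallowest to the deepest bin, the MYH6 share was 97.8%, 96.8%, 93.6% and 91.0% in NR2F2-positive cells and 90.8%, 89.8%, 87.9% and 86.7% in HEY2-positive cells. It was higher in NR2F2-positive cells in 4 of 4 bins, and it fell with depth in both classes. Smooth muscle markers also moved with the class: the 5 summed to 2144 CPM in NR2F2-positive and 978 CPM in HEY2-positive cells, with none at 0. Of the 7 markers on the atrial list, which includes NR2F2, 5 were measured, 4 were higher and 1, HEY1, was lower. Their part in the myosin differences was not tested.

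The difference was also read hashtag by hashtag, in the 9 hashtags with at least 20 cells of each class. MYL7 was higher in NR2F2-positive cells in 9 of 9, 2.08-fold to 3.15-fold with a median of 2.60, and MYH6 in 9 of 9, 1.45-fold to 2.10-fold. MYH7B was also higher in 9 of 9 (1.22-fold to 2.78-fold). MYL3 was lower in 9 of 9, with ratios of 0.546 to 0.9995, the last in Hashtag6. MYL2 was lower in 8 of 9 (0.200 to 1.27). MYH7 was lower in 8 of 9 as well (0.231 to 3.09). In both cases the exception was Hashtag7, whose HEY2-positive cells had 99.3 CPM of MYH7, the lowest of the 9, and 307 CPM in NR2F2-positive cells. Accordingly MYH6 per MYH7 was higher in NR2F2-positive cells in 8 hashtags, by 1.92 to 8.86 times, and in Hashtag7 it was 0.470 of that in HEY2-positive cells (0.392 to 0.564). MYL7 per MYL2 was higher in 9 of 9, by 1.99 to 13.0 times, though the counting intervals of Hashtag6 (0.906 to 6.67) and Hashtag7 (0.871 to 4.56) took in 1. MYL4 was higher in 6 of 9, with ratios of 0.891 to 1.47. Hashtag15 held 491 of the NR2F2-positive cells. Without it, among cells with 1 clear hashtag, MYH7 had a ratio of 0.767 and MYL3 of 0.703, both inside the 1.5-fold limit, while MYL7 was still 2.67-fold and MYH6 1.73-fold higher. Where TNNT2 and ACTN2 UMIs defined the cardiomyocytes in place of clusters, MYH6 was 1.46-fold and MYH7B 1.26-fold higher, neither past the call.

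**Figure D2:**
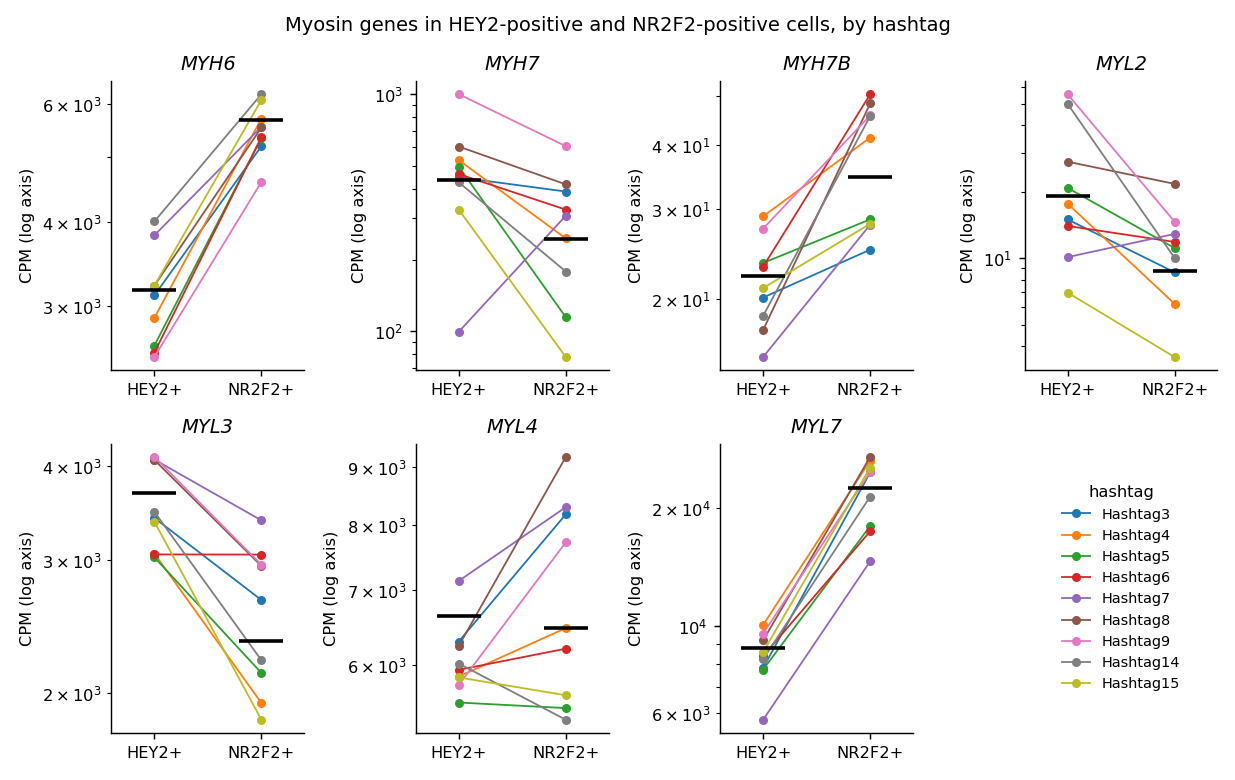
Each panel shows 1 gene in CPM on a log axis in HEY2-positive and NR2F2-positive cells, with 1 line per hashtag that has at least 20 cells of both and a black bar for all cells of the class. Lines for MYL7 and MYH6 rise in 9 of 9 hashtags, and the MYH7 and MYL2 lines fall in 8 of 9.

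The listed myosin partners were read against the same background of 8.95% of genes higher and 3.52% lower. Of the 8 chaperones and turnover factors 1 was higher, TRIM55, 2.22-fold (median of the list -0.06 on the log2 scale, against 0.07 over all genes). Of 5 measured kinase and phosphatase genes only MYLK was higher, 5.28-fold, from 11.0 against 2.08 CPM, and of 7 measured smooth and non-muscle chains only MYL12A, 1.60-fold. MYBPC3 and MYL5, the measured genes of their lists, were within the limit. Of 20 regulators measured 5 were higher, of which NR2F1, an atrial factor related to NR2F2, 46.7-fold, TBX5 2.54-fold, SRF 1.95-fold and PURB 1.61-fold were the 4 largest. Lower were IRX4, a ventricular factor that represses atrial genes (0.323), HAND1 (0.517), HEY1 (0.575) and RXRG (0.579).

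The SHOX2-positive class was mixed: 43.7% of its cells also had a HEY2 UMI and 68.9% an NR2F2 UMI. Its levels therefore depend on that overlap and on the clustering. MYL7 was at 16537 CPM (16390 to 16685), 1.87 times its level in HEY2-positive cells, and MYH7 at 251 CPM, 0.576 of it (0.535 to 0.620). The other 5 were within the limit: MYH6 at 4381 CPM (1.38), MYL4 at 7192 (1.09), MYH7B at 22.3 (1.01), MYL3 at 2894 (0.786) and MYL2 at 14.7 (0.767, 0.554 to 1.04, from 43 UMIs). The background here was 4.17% of 8505 genes higher and 1.76% lower, and TMM moved the share of calls that were higher from 70.3% to 56.7%. MYH6 was 94.6% of the heavy chain pair, and MYH6 per MYH7 was 2.40 times that of HEY2-positive cells (2.23 to 2.59). That factor was below the 3.21 of NR2F2-positive cells, but 3.38 against 3.26 at resolution 1.0, 3.39 against 3.29 in cells with 1 clear hashtag and 7.57 against 5.44 after thinning. Without Hashtag15 it was 2.22, and without the deepest sub-cluster 4.36. Among the 94 SHOX2-positive cells with no HEY2 UMI, MYH6 was 97.6% of the pair, MYL7 24853 CPM and MYL2 2.30 CPM, from 2 UMIs, against 95.9%, 22546 CPM and 8.76 CPM in NR2F2-positive cells. Of the regulators, NR2F1 was 28.3-fold, ISL1, a pacemaker factor, 4.41-fold and TBX5 1.70-fold higher than in HEY2-positive cells, and IRX4 was 0.60 of its level there. Of the myosin partners only MYLK passed the limit (7.09-fold, from 43 UMIs). All 7 endoderm markers together gave 213 CPM in SHOX2-positive and 58.1 CPM in HEY2-positive cells, and 3 of 3 measured ones were higher. Their part in the myosin values was not tested.

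Re-clustering the cardiomyocyte-like cells without any myosin member gave 11 sub-clusters, called here by their leading genes, and the members were read across them as a description. Sub-cluster 3 (1927 cells, led by NR2F2, NPPA and SAA1) had the highest MYL7, 26908 CPM, the highest MYH6, 6486 CPM, and the lowest MYH7, MYL2 and MYL3, at 135, 4.90 and 2113 CPM. Sub-cluster 11 (640 cells, led by THBS1, FLRT3 and IGFBP3) was at the other end of the heavy chain range, with MYH7 at 1186 CPM and MYH6 at 2376 CPM. Its MYH6 share was 66.7% (66.2 to 67.2), the lowest of the 11, and MYH7 held the majority in 28.2% of its cells. It had 179 of the 807 MYH7-majority cells, and sub-cluster 1 (led by HEY1 and DDIT4), the largest, had 221.

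MYL2 did not follow the heavy chains exactly. It was highest in sub-cluster 5 (1173 cells, led by KDR, HBEGF and IGFBP6), at 50.7 CPM, where MYH7 was 759 CPM and MYL7 11277 CPM. Next came sub-cluster 10 (led by metallothionein genes), at 30.7 CPM, and sub-cluster 11, at 27.6 CPM. Sub-clusters 2 (led by LRRN3 and ANGPT1) and 4 (led by LMOD2 and IRX1) had MYH6 shares of 95.7% and 96.5%, close to sub-cluster 3, but with MYL7 at 7735 and 8014 CPM, well below that in sub-cluster 3. In cells with 1 clear hashtag, sub-clusters 2, 3 and 4 were unevenly spread. Sub-cluster 2 made up 58.5% of Hashtag10, 50.8% of Hashtag7 and 47.9% of Hashtag12, and at most 17.3% of others. Sub-cluster 4 made up 64.1% of Hashtag2, 55.5% of Hashtag1 and 24.97% of Hashtag7, and at most 9.57% of others. Sub-cluster 3 made up 72.4% of Hashtag15, 48.5% of Hashtag14 and 22.2% of Hashtag3, and at most 14.7% of others. The part of the hashtags in these profiles was not tested.

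MYH7B and MYL4 varied along other lines. MYH7B was lowest in the cycling cells, at 11.4 CPM in sub-cluster 9 (led by CENPF, DLGAP5 and ASPM) and 12.6 CPM in sub-cluster 6 (led by PCLAF and histone genes). It was highest in sub-cluster 3, at 44.5 CPM, and in sub-cluster 7 (led by MT3, HLA-DQB1 and NMB), at 44.1 CPM. Sub-cluster 7 also had the lowest MYL4, 3679 CPM, and MYL4 gave 53.5% of its essential light chain UMIs, against 76.2% in sub-cluster 3. Sub-cluster 8 had a median of 34966 UMIs per cell and leading genes of several other cell types (SERPINA1, COL3A1, GPC3). Its MYH6 share was 85.7%.

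**Figure D3:**
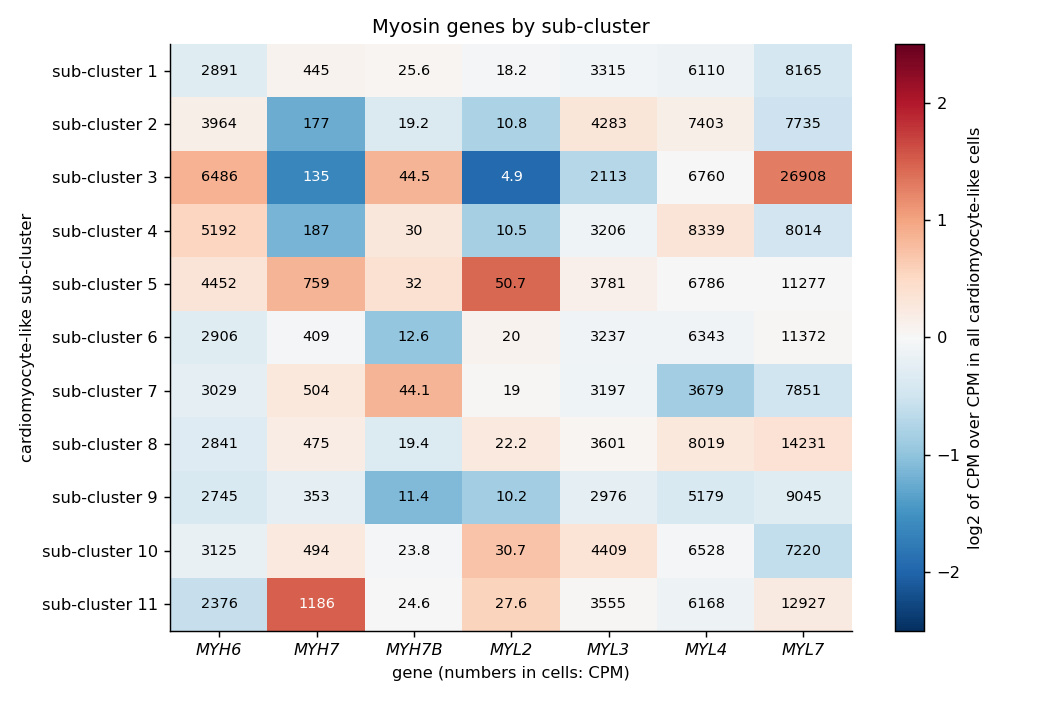
Rows are the 11 sub-clusters of cardiomyocyte-like cells, columns the 7 genes, numbers are CPM and colour is the log2 ratio to all cardiomyocyte-like cells. MYL7 and MYH6 are highest in sub-cluster 3 (26908 and 6486 CPM), MYH7 in sub-cluster 11 (1186 CPM) and MYL2 in sub-cluster 5 (50.7 CPM).

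Hashtags differed widely in their chain ratios. Their cells are also part of the sub-clusters above, so the hashtag values are not a separate observation. Cells with 20 or more hashtag UMIs were assigned when 70% or more came from a single hashtag, which placed 7082 cardiomyocyte-like cells (49.4%), 110 to 969 per hashtag. The MYH6 share ran from 76.0% in Hashtag9 (75.4 to 76.6) to 97.6% in Hashtag15 (97.5 to 97.8), with a median of 91.2%. Hashtag7 (97.3%) and Hashtag10 (97.0%) were next to the top, and their intervals, 97.1 to 97.4 and 96.9 to 97.2, overlapped each other. Hashtag4 (85.7%) and Hashtag8 (85.6%) also overlapped. MYL7 per MYL2 ran from 267 (235 to 305) in Hashtag9 to 3553 (2647 to 4890) in Hashtag15, with a median of 631.

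**Figure D4:**
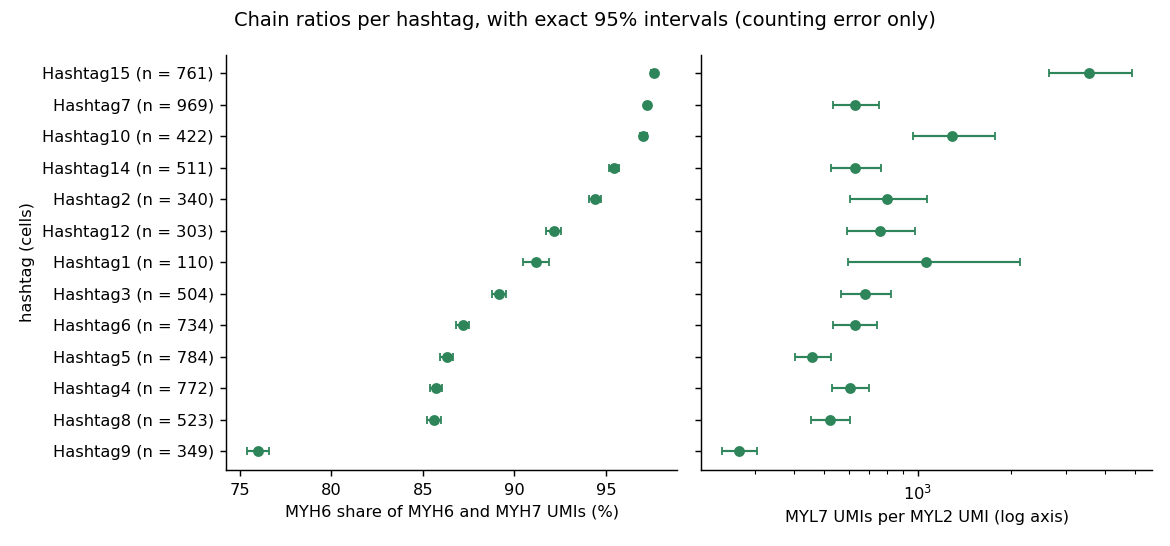
Points are the 13 hashtags, ordered by the MYH6 share of MYH6 and MYH7 UMIs (left, %), with MYL7 UMIs per MYL2 UMI on a log axis (right) and 95% intervals for counting error. Hashtag9 is lowest in both panels and Hashtag15 highest in both, while Hashtag7 and Hashtag10 have high MYH6 shares and differ on the right.

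The genes behind these ratios did not vary equally. MYH7 ran from 113 CPM in Hashtag7 to 949 CPM in Hashtag9, 8.37-fold, with a median of 421. MYL2 ran from 5.80 CPM in Hashtag10 to 46.8 CPM in Hashtag9, 8.07-fold, with a median of 14.5. MYL7 varied 3.37-fold, from 6635 CPM in Hashtag7 to 22377 CPM in Hashtag15. MYH7B varied 2.66-fold (13.5 to 36.0 CPM), MYL3 2.07-fold (2213 to 4586), MYH6 1.94-fold (2865 to 5555) and MYL4 1.45-fold (5528 to 7999). MYH7-majority cells were 0.420% of Hashtag7 and 21.1% of Hashtag9, with a median of 4.63%.

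Hashtags also differed in their marker classes, so the same values were read in HEY2-positive cells alone. NR2F2-positive cells made up 64.5% of Hashtag15, 45.8% of Hashtag14 and 0.948% to 19.2% of the other 11. In HEY2-positive cells MYL7 varied 1.75-fold instead of 3.37-fold, but MYH7 varied 10.1-fold, from 99.3 CPM in Hashtag7 to 1002 CPM in Hashtag9. The MYH6 share there was 71.5% in Hashtag9 to 97.5% in Hashtag7. Hashtag14 and Hashtag15, both rich in NR2F2-positive cells, had MYL2 at 27.2 and 6.30 CPM. In their HEY2-positive cells (72 and 58) MYL2 was 50.2 and 6.99 CPM, and the MYH6 share 90.4% and 90.8%. What a hashtag stands for (a culture, a batch or a treatment) cannot be told apart.

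Cells with a larger MYH7 share also held more MYL2, a gene the split did not use. In the 807 MYH7-majority cells MYL2 was at 61.6 CPM, against 10.0 CPM in the 5791 cells with an MYH6 share of 99% or more, 6.14-fold higher (5.54 to 6.81). Between them, MYL2 was at 26.2 CPM in cells of 50% to 90% and 13.5 CPM in cells of 90% to 99%. The other light chains were within the limit between the extremes: MYL7 at 13240 and 10482 CPM (1.26), MYL3 at 3654 and 3250 (1.12) and MYL4 at 6297 and 6537 (0.963). MYH7B was at 25.6 and 26.3 CPM. For MYL7 this pooled ratio covered opposite directions. With cells split at an MYH6 share of 90%, MYL7 below it was 1.58 times its level above it in HEY2-positive cells and 0.734 times in NR2F2-positive cells. Over hashtags that ratio ran from 0.547 in Hashtag14 to 1.80 in Hashtag10, past 1.5-fold upwards in 4 of 13 and downwards in 1. Of 8413 genes measured 2.03% were higher and 4.21% lower. TMM moved the median of all genes by 0.14 (log2) and the share of calls that were higher from 32.6% to 57.2%, with MYL2 at 6.75-fold. Median depth was 15151 and 11061 UMIs.

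The MYL2 difference was present within hashtags, marker classes and depths. With cells split at an MYH6 share of 90%, MYL2 was 32.5 CPM below and 11.8 CPM above it, 2.76-fold (2.59 to 2.94). It was higher below 90% in 13 of 13 hashtags, by 1.23-fold in Hashtag10 to 4.15-fold in Hashtag14, with a median of 2.63, although in Hashtag10 (0.378 to 3.11) and Hashtag1 (0.877 to 14.3) the counting interval took in 1. It was 2.56-fold in HEY2-positive and 4.34-fold in NR2F2-positive cells. Over the 4 depth bins it was 4.44-fold, 4.09-fold, 2.68-fold and 2.36-fold, from shallow to deep. Read the other way, the MYH6 share was 91.1% in cells with 0 MYL2 UMIs, 85.8% with 1, 78.8% with 2 to 4 and 70.3% in the 139 cells with 5 or more, whose MYH7 was at 1040 CPM. Median depth in these 4 bins was 12204, 15631, 18312 and 17609 UMIs.

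**Figure D5:**
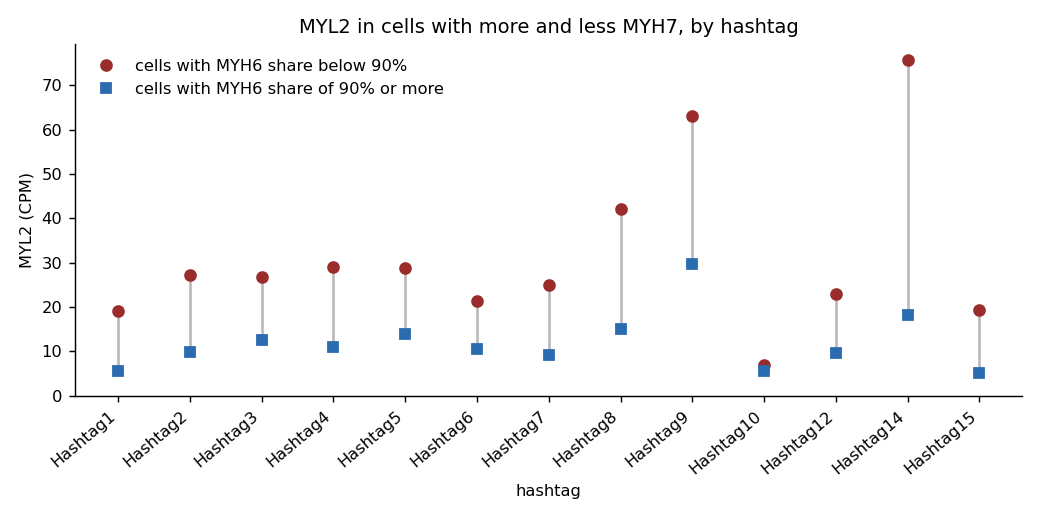
For each of the 13 hashtags, MYL2 in CPM is shown in cells with an MYH6 share below 90% (circles) and of 90% or more (squares). Circles lie above squares in 13 of 13 hashtags, with the widest gap in Hashtag14 (75.8 against 18.3 CPM) and nearly none in Hashtag10 (6.96 against 5.68 CPM).

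Regulators and partners were read between MYH7-majority cells and cells with an MYH6 share of 99% or more, beside the background of 2.03% of genes higher and 4.21% lower. Of 20 regulators measured 1 was higher, TBX18 (1.88-fold), and 4 were lower: TBX5 (0.606), SRF (0.623), RXRG (0.641) and MEF2C (0.664), with a median of -0.11 on the log2 scale for the list and -0.09 over all genes. Of the 8 chaperones SMYD2, a methyltransferase, was higher (1.56-fold), and of 4 measured kinases and phosphatase subunits PPP1R12B was lower (0.667). The smooth and non-muscle chains, MYL5 and MYBPC3 were within the limit. Atrial markers summed to 296 CPM in MYH7-majority cells and 875 CPM in the others, and 2 of 4 measured ones were lower. Epithelial markers summed to 1569 and 1029 CPM, with none at 0, and 2 of 5 measured ones were higher, the keratins KRT18 (1.86-fold) and KRT19 (1.52-fold). The part of either list in the MYL2 difference was not tested.

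Across cells the members formed few pairs. On log2(CPM + 100) in 13968 cardiomyocyte-like cells with at least 3000 UMIs, the Pearson correlation was 0.43 between MYL3 and MYL4, 0.36 between MYL4 and MYL7 and -0.37 between MYH6 and MYH7, and the other pairs lay between -0.12 and 0.21. The cells share a library and its depth. Across the 13 hashtags the correlation of MYH7 with MYL2 on log2(CPM + 1) was 0.79, that of MYL3 with MYL7 -0.68 and that of MYH7B with MYL3 -0.70. MYL4 with MYL7 was -0.43 across hashtags, opposite in sign to the value across cells. Hashtags share the capture and differ in depth and in marker classes.

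Other genes at 50 CPM or more were ranked by their likeness to each member, as Pearson correlations over 13 hashtags or 11 sub-clusters among 2719 genes. The points are few and differ in depth and marker classes. No chance level was computed, so the leading genes are a description only. MYL7 was most like PAM (0.91), an atrial granule enzyme, REEP3 and COL2A1 over hashtags, and TAGLN (0.91), COL2A1 and TMEM141 over sub-clusters. MYL2 was most like MICAL3, LRRFIP1 and PPP1R15A over hashtags (0.88, 0.88 and 0.84), and MYH7 (0.86), MRPL17 and ANKRD37 over sub-clusters. MYH7 was most like SRP14, CCNG1 and TMEM65 over hashtags (0.84, 0.83 and 0.82), and CLDN6, LINC00881 and EIF3H over sub-clusters (0.76, 0.75 and 0.74). MYH6 was most like H2AFV (0.96), the receptor gene ERBB2 and VCL over hashtags, and SDF4 (0.96), AC020909.2 and RAB18 over sub-clusters. MYL3 was most like STK39 (0.95), FAHD1 and MLLT11 over hashtags, and the mitochondrial genes MRPL21 (0.90), IDH3B and ECHS1 over sub-clusters. MYL4 was most like CFL1 (0.92), WWTR1 and MLF2 over hashtags, and ATOX1 (0.97), BEX3 and CAPNS1 over sub-clusters.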

How the data were processed

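One matrix of 36601 gene rows and 13 hashtag rows for 24038 barcodes was used. The authors deposited it as raw counts (UMIs), made with Cell Ranger 4.0.0 per the file headers and with build hg38 per the submitters' processing notes. The 10x chemistry and strand setting were not found in labels or headers. The gene and hashtag libraries share all barcodes. Filtering for 500 or more genes, 1000 or more UMIs and a mitochondrial share up to 25% left 21623 barcodes. Scrublet (scanpy 1.11.5) marked 2508 doublets (11.6%, against an expected 17.3%), which were removed, so doublets remain. Variable genes (2000, without the 7 members), 30 principal components, 15 neighbours and leidenalg 0.10.2 at resolution 0.6 gave 18 clusters, named from marker lists. UMIs were summed per group, in CPM, with exact Poisson, binomial and Clopper-Pearson intervals (scipy 1.17.1) and log intervals for ratios of ratios. A gene was called from 1.5-fold. TMM factors came from edgeR 4.0.16. Cells are not replicates, so no test was run. The ratio calculation was tested on simulated data.

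The members, lists and rules were chosen with earlier results of these data known. Named genes were the 7 members, up to 4 genes per list and direction with the largest ratios past 1.5, and the 3 genes most like each of 6 members. Alternatives were a stricter filter, doublets kept, resolution 1.0, a TNNT2 and ACTN2 definition, cells thinned to 3000 UMIs, a marker cut of 2 UMIs, other scaling and minimums, other hashtag cuts, and each hashtag left out.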

Additional observations from a re-analysis of the deposited data

How the results depend on the processing

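The MYH6 share of cardiomyocyte-like cells stood at 89.5% and moved beyond its counting interval to 89.7% with doublets kept, 89.6% at resolution 1.0, 91.0% after thinning, 90.8% in cells with 1 clear hashtag (89.8% to 91.6% leaving out each hashtag) and 90.001% without the deepest sub-cluster, an alternative chosen after seeing the data. MYL7 per MYL2, 595, was 653 in cells with 1 clear hashtag (571 to 719 leaving out each). The NR2F2-positive over HEY2-positive factor for MYH6 per MYH7, 3.21, was 3.09 with doublets kept, 5.44 after thinning, 4.98 at 2 marker UMIs and 2.26 to 3.90 leaving out each hashtag. Thinning leaves each class fewer cells, since fewer keep a marker UMI, and the cause of the larger factor was not tested. The SHOX2-positive factor, 2.40, was 3.38 at resolution 1.0, 3.25 by TNNT2 and ACTN2, 7.57 after thinning, 3.39 with 1 clear hashtag (2.22 to 4.64 leaving out each, lowest without Hashtag15), 2.85 at 2 marker UMIs and 4.36 without the deepest sub-cluster, so its size is poorly fixed. None of these factors fell below 1. Genes called higher and lower between NR2F2-positive and HEY2-positive cells, 771 and 303, were 535 and 506 with TMM and 2683 and 1804 with no CPM minimum. Over hashtags, the lowest MYH6 share was 74.98% with the stricter filter and 79.1% at a hashtag share of 90%. The highest was 96.9% at 50% (in Hashtag10) and 98.9% at 90%, and the highest MYL7 per MYL2 was 7905 at 90%. At 90%, with 1890 cells, the Spearman correlation with the main hashtag values was 0.92 for the MYH6 share. For MYL7 per MYL2 it was only 0.55, so the order of hashtags between the ends is poorly fixed. The marker classes were compared within hashtags, but the labels do not say what a hashtag stands for. No paired test was run, and those readings stand as values. Depth limits MYL2 most: 159 UMIs in NR2F2-positive and 43 in SHOX2-positive cells.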

Other observations

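The cluster of 1575 shallow cells (median 1917 UMIs, 13.2% mitochondrial UMIs) entered none of the main comparisons. Its cells with TNNT2 and ACTN2 UMIs did enter where these genes defined the cardiomyocytes. The cluster had its own myosin profile. The long heavy chain RNAs were high there, with MYH6 at 6311 CPM, MYH7 at 790 CPM and MYH7B at 162 CPM, against 3565, 419 and 24.6 CPM in cardiomyocyte-like cells. The short light chain RNAs were low, with MYL3 at 1063 CPM, MYL4 at 1910 CPM, MYL7 at 6837 CPM and MYL2 at 3.37 CPM (14 UMIs). There were 1.35 light chain UMIs per heavy chain UMI, against 5.32, while the MYH6 share of the heavy chain pair was 88.9%, against 89.5%. The leading genes of this cluster include the nuclear RNAs NEAT1 and MALAT1. The part of RNA length or of nuclear RNA in this profile was not tested.

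The 173 cells led by CRHBP and HOXB1 had MYL4 at 6489 CPM, near the cardiomyocyte-like level, with MYL7 at 4261 CPM, MYL3 at 1358 CPM and MYH7 at 58.6 CPM. MYL4 gave 82.7% of their essential light chain UMIs.

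MYH4, a fast heavy chain of skeletal muscle and no member here, was named after its values were seen. It had 1115 UMIs in cardiomyocyte-like cells (5.22 CPM), was among the leading genes of sub-cluster 1, and stood at 6.66 CPM in HEY2-positive cells (894 UMIs) against 0.441 CPM in NR2F2-positive cells (8 UMIs). The antisense gene AC005323.2 overlaps it on the opposite strand, and without a stated strand setting their reads cannot be told apart.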
